A study of Mus musculus with 4 samples.

Results

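Scavenger and particle uptake receptors, represented by 10 genes, were followed in mouse macrophages that had met extracellular vesicles (EVs), small membrane-bound particles released by cells. They were Msr1, Marco, Cd36, Scarb1, Scarb2, Stab1, Mertk, Axl, Timd4 and Cd68, chosen by gene symbol, and 10 of the 38087 genes of the deposited table carried these symbols, each on a single row. The macrophages were bone marrow-derived macrophages (BMDMs) of C57BL/6 mice aged 6 to 8 weeks, and all 4 libraries came from marrow cells kept for 5 to 7 days in 30% L929-conditioned medium, a source of the growth factor that makes macrophages. In 3 of the libraries the BMDMs had received, for 16 h, EVs from Beas2B cells, a human lung epithelial line, that had been transfected with mimics of miR-93 (the miR-93 EV library), mimics of miR-17 (miR-17 EV) or scrambled control RNA (control EV). The other library was of BMDMs labelled WT, with no EVs named for it (unexposed). Each library held the pooled RNA of 4 biological replicates, so no group had a replicate library, the spread between cultures was not measured, and no test between conditions was possible. Ratios below therefore compare libraries, and every interval is a 95% interval that covers counting error only. Amplified reads lacking molecular identifiers may repeat a molecule.

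Scavenger receptors are surface proteins through which macrophages bind and take in modified lipoproteins, bacteria, dust and other particles without help from antibodies. Dying cells are recognised by a second set, which reads phosphatidylserine on the outer membrane leaflet either directly, as Timd4 does, or through bridging proteins such as Gas6 and protein S, as the kinases Mertk and Axl do. What is taken in passes to endosomes and lysosomes, whose membranes hold the products of Cd68 and Scarb2.

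The miRNAs named by the labels share a seed, the bases 2 to 8 that pair with target mRNAs. Their mouse mature sequences, from RefSeq on the GRCm38.p6 build, are shown with the seed in capitals because a match to it was then sought in each receptor mRNA.
mmu-miR-17-5p: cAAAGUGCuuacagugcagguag
mmu-miR-93-5p: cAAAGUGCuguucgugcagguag
The seed match GCACTTT, read on the mRNA strand only, occurred in the longest annotated 3' UTR (GENCODE M21) of 1 of the 10 receptor genes. That gene was Cd36, whose 3' UTR of 1660 bases held the match at position 260, in the minus-strand window chr5:17783074-17783100. The window is printed below in the sense of the mRNA, with the match in capitals.
Cd36 window: ataaaatcttGCACTTTtattaaaagt
A second form of match, CACTTTA without a preceding G, was found in none of the 10. Of 12177 genes with a 3' UTR that averaged 20 or more normalized counts, 15.3% held GCACTTT and 23.0% held at least 1 of the 2 forms. A match is a string of letters and was not measured as a bound site.

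Libraries held 22247527 (miR-93 EV), 22607247 (miR-17 EV), 17815250 (control EV) and 19705482 (unexposed) reads in genes. All 10 macrophage markers were measured, from Lyz2 with a mean of 518920 normalized counts to Mertk with 1999, and their summed level was 631879 in miR-93 EV, 619601 in miR-17 EV, 753638 in control EV and 663618 in unexposed. Most of that sum was Lyz2, with 596249 in control EV and 512117 in unexposed. Against unexposed, 7 of the markers were higher in control EV and 3 were lower. These 3 were Cd68 at a ratio of 0.919, Itgam at 0.945 and Mertk at 0.850, and Cd68 and Mertk are also receptor genes. All 10 markers were lower than unexposed in miR-93 EV, and 9 were lower and 1 higher in miR-17 EV. Of all tested genes, 7873 of 15403 and 7998 of 15396 were lower. Against control EV, 8 were lower and 2 higher in miR-93 EV, and 9 lower and 1 higher in miR-17 EV. Of all tested genes, 8198 of 15361 and 8126 of 15362 were lower. Of 7 endothelial markers, relevant because Stab1 is also a gene of sinusoidal endothelium, Vwf had a mean of 1314 normalized counts and Kdr 106, while Cdh5, Tek, Emcn, Tie1 and Lyve1 had means of 2.26 to 16.3. The neutrophil list was nearly all S100a8 and Lcn2, at means of 589 and 395, while S100a9, Ly6g, Mpo and Elane had means of 0.263 to 3.97. Its sum was 1108 normalized counts in miR-93 EV, 1139 in miR-17 EV, 720 in control EV and 997 in unexposed. The sum was lowest in control EV, as Msr1, Marco and Cd36 were. The list had 2 of 6 markers at a mean of 20 or more. The osteoclast list, with 2 of 4 markers at that level, summed to 2041 in miR-93 EV, 1778 in miR-17 EV, 1418 in control EV and 2349 in unexposed. In it Acp5, an acid phosphatase, was called lower in control EV than in unexposed at a ratio of 0.517 and higher than in control EV at 1.61 in miR-93 EV and 1.44 in miR-17 EV. Ctsk, the other marker at that level, was instead highest in control EV. It had 376 normalized counts in miR-93 EV, 294 in miR-17 EV, 388 in control EV and 352 in unexposed. Ctsk was called lower in miR-17 EV than in control EV, at 0.758 (0.649 to 0.885). The T and NK cell list, nearly all of it Il7r, summed to 2449 in miR-93 EV, 2196 in miR-17 EV, 1647 in control EV and 2038 in unexposed, while Cd3d, Cd3e, Trac and Ncr1 had means under 1. The part of these 3 lists in the receptor results was not tested. No marker of the lists was at 0 reads in all libraries. Fewer cells of a type and less RNA per cell cannot be told apart in these bulk libraries.

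Per length of annotated exon, the receptor genes spanned a wide range of levels. Cd68 had a mean over the 4 libraries of 15895 normalized reads per kb of exon, Cd36 had 9478 and Marco 6463. Stab1 followed at 1324, Msr1 at 721 and Mertk at 461, and then Axl at 343, Scarb2 at 327 and Scarb1 at 285. Timd4 stood last at 30.7. The order of the first 6 and of Timd4 was the same in each library, whereas Axl, Scarb2 and Scarb1 changed places. Among all genes of the table, Cd36 ranked 44th, Cd68 95th, Stab1 150th and Marco 166th by mean normalized count, which is not corrected for length. With the deposited gene length, which is the whole span with introns, the mean of Stab1 was 460 per kb, that of Marco 407 and that of Cd36 317. The bases not marked as low coverage numbered 3715 to 4174 for Cd36 and 1873 to 1995 for Marco, beside 3590 and 1925 bases of annotated exon. For Cd36 they were above the annotated exon in every library, and for Marco in all but control EV, so some lay outside it. They fell short of the annotated exon in Scarb1 (2287 to 2338 beside 8500) and Scarb2 (1795 to 1967 beside 6285). The same held for Msr1 (3019 to 3731 beside 6344) and Axl (3118 to 3299 beside 5033). The levels per kb of these genes thus depend on the length used, and the order by covered bases was not tested.

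**Figure D1:**
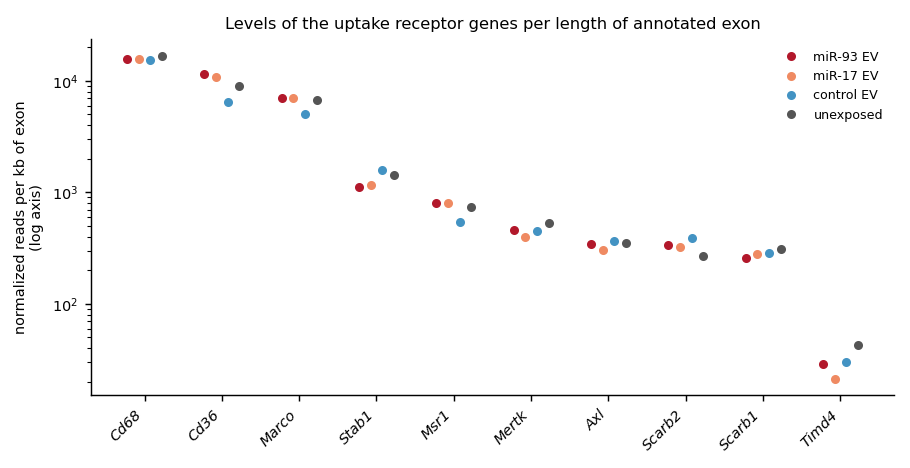
Normalized reads per kb of annotated exon (log axis) of each uptake receptor gene, with 1 point per library. Cd68 had the highest mean, 15895, and Timd4 the lowest, 30.7.

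Below, a gene is called higher or lower in a pair of libraries if 3 things held: a ratio of 1.3-fold or more, a pair mean of 20 or more normalized counts, and an interval without 1. A 2-fold limit was applied in the same way.

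The class A receptors, collagen-like proteins that bind acidic lipoproteins and bacteria, had their lowest level in control EV. Msr1, the type A scavenger receptor (ENSMUSG00000025044, mm10 chromosome 8, 39581700 to 39642678), had 5063 normalized counts in miR-93 EV, 5070 in miR-17 EV, 3430 in control EV and 4724 in unexposed. Its level in both mimic libraries was above control EV, with ratios of 1.48 (1.41 to 1.54) in miR-93 EV and 1.48 (1.41 to 1.55) in miR-17 EV, and control EV was below unexposed at 0.726 (0.693 to 0.761). Against unexposed the mimic libraries were within 1.3-fold, at 1.07 (1.03 to 1.11) in miR-93 EV and 1.07 (1.03 to 1.12) in miR-17 EV, and the correction on GC content turned both signs, with log2 ratios of −0.06 in miR-93 EV and −0.02 in miR-17 EV, against 0.10 in each uncorrected. Msr1 in miR-93 EV and miR-17 EV could not be told apart by counting error, at a ratio of 0.999 (0.962 to 1.04).

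Marco, a class A receptor for bacteria and inhaled particles (ENSMUSG00000026390, chromosome 1, 120474538 to 120505084), had 13442 normalized counts in miR-93 EV, 13608 in miR-17 EV, 9671 in control EV and 13042 in unexposed. Control EV was again the low library, and the other 3 libraries lay between 13042 and 13608. Marco was called higher in miR-93 EV than in control EV at 1.39 (1.35 to 1.43) and in miR-17 EV at 1.41 (1.37 to 1.45), and lower in control EV than in unexposed at 0.742 (0.721 to 0.763).

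**Figure D2:**
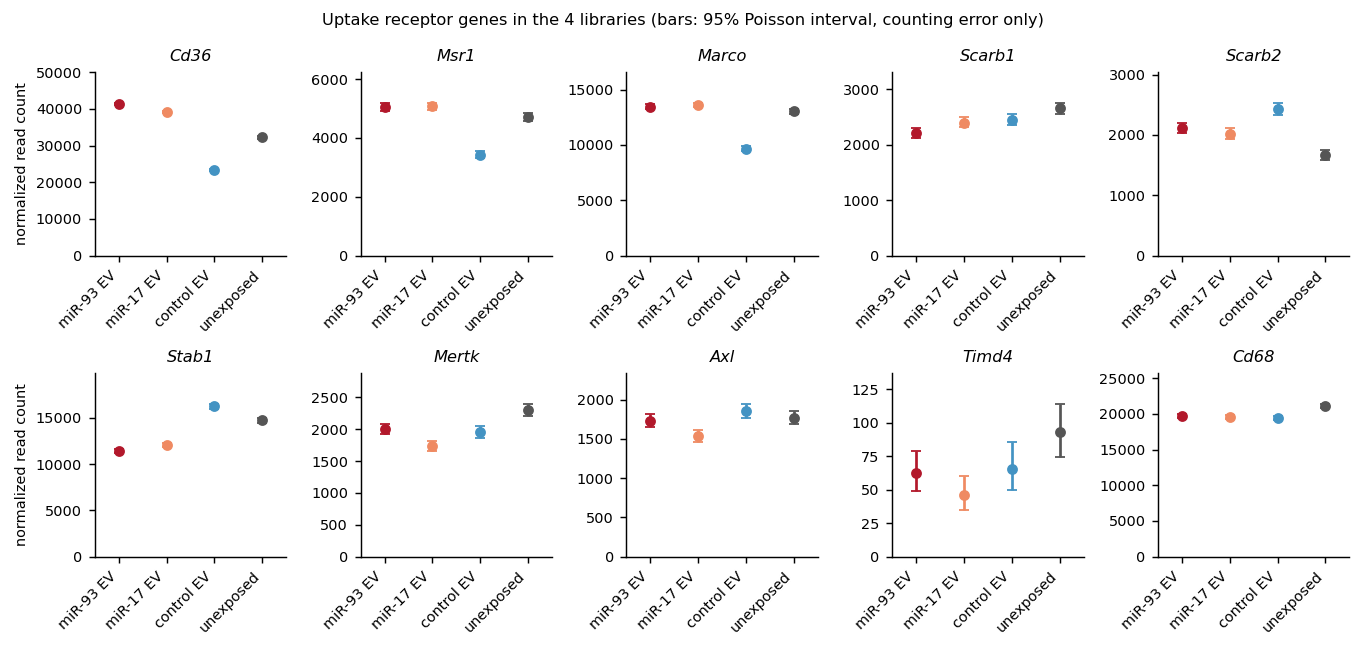
Normalized read count of each uptake receptor gene in the 4 libraries, with linear axes from 0 and bars for the 95% Poisson interval of the count. Msr1, Marco and Cd36 were lowest in control EV, Stab1 and Scarb2 were highest there, and Timd4 had the widest intervals. Cd68 was also lowest and Axl also highest in control EV, but neither was apart from the next library by counting error.

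Class B receptors are hairpin-like membrane proteins of lipid uptake and lysosomes, and the 3 genes of this class differed in direction. Cd36, the receptor for long-chain fatty acids and oxidised LDL (ENSMUSG00000002944, chromosome 5, 17781690 to 17888959), had 41344 normalized counts in miR-93 EV, 39140 in miR-17 EV, 23394 in control EV and 32233 in unexposed. These 4 levels were all apart by counting error, with control EV lowest and miR-93 EV highest. Before the correction on GC content given below, after which Marco was ahead of it, Cd36 had the largest ratios of the 10 genes between mimic libraries and control EV, at 1.77 (1.74 to 1.80) in miR-93 EV and 1.67 (1.65 to 1.70) in miR-17 EV. Of 15361 genes tested in miR-93 EV against control EV, 97.8% had a lower ratio. Control EV over unexposed was 0.726 (0.713 to 0.739), and the mimic libraries over unexposed were 1.28 (1.26 to 1.301) in miR-93 EV and 1.21 (1.197 to 1.23) in miR-17 EV, short of 1.3-fold. Transfer of the miRNAs into the macrophages and pairing at the Cd36 match printed above were not measured.

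Scarb1 encodes SR-BI, the receptor through which cells exchange cholesterol with HDL (ENSMUSG00000037936, chromosome 5, 125277087 to 125341094). It had 2207 normalized counts in miR-93 EV, 2397 in miR-17 EV, 2450 in control EV and 2650 in unexposed. The exposed libraries were each below unexposed, by ratios of 0.833 (0.787 to 0.881), 0.904 (0.856 to 0.955) and 0.924 (0.872 to 0.980) in that order, and none reached 1.3-fold.

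Scarb2 encodes LIMP-2, a lysosomal membrane protein that carries glucocerebrosidase to lysosomes (ENSMUSG00000029426, chromosome 5, 92443873 to 92505608). It had 2109 normalized counts in miR-93 EV, 2022 in miR-17 EV, 2429 in control EV and 1672 in unexposed. Every exposed library was above unexposed, and control EV was the highest of them. Its ratio to unexposed was 1.26 (1.18 to 1.35) in miR-93 EV, 1.21 (1.13 to 1.29) in miR-17 EV and 1.45 (1.36 to 1.55) in control EV, and the last was called. Scarb2 was the sole receptor gene called higher in control EV than in unexposed.

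Stab1 encodes stabilin-1, an endocytic receptor for modified proteins and matrix fragments (ENSMUSG00000042286, chromosome 14, 31139013 to 31168641). It had 11417 normalized counts in miR-93 EV, 12034 in miR-17 EV, 16293 in control EV and 14746 in unexposed. Both mimic libraries were lower than the other libraries. The calls were against control EV, at 0.701 (0.684 to 0.718) in miR-93 EV and 0.739 (0.721 to 0.756) in miR-17 EV. Against unexposed the ratios were 0.774 (0.756 to 0.793) in miR-93 EV and 0.816 (0.797 to 0.836) in miR-17 EV, which fell short of 1.3-fold, and control EV was at 1.10 (1.08 to 1.13). The summed endothelial markers, most of them Vwf, were 1404 normalized counts in miR-93 EV, 1532 in miR-17 EV, 1397 in control EV and 1554 in unexposed. Kdr had 98.7, 80.8, 114 and 130 in the same order. It was called lower than in unexposed at 0.761 (0.583 to 0.993) in miR-93 EV and 0.623 (0.470 to 0.824) in miR-17 EV. Against control EV, Kdr was called lower in miR-17 EV at 0.711 (0.528 to 0.956). In miR-93 EV, at 0.869 (0.655 to 1.15), it was not called. The part of these markers in the Stab1 ratios was not tested. The span of Stab1 shares 109 bases with Nt5dc2 on the other strand, which had 2259 to 2570 reads per library.

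Of the receptors of dying cells, Mertk and Timd4 were below unexposed in every exposed library, and Axl differed little. Mertk, the kinase by which macrophages engulf apoptotic cells (ENSMUSG00000014361, chromosome 2, 128698956 to 128802894), had 2001 normalized counts in miR-93 EV, 1730 in miR-17 EV, 1959 in control EV and 2305 in unexposed. All exposed libraries were below unexposed, and miR-17 EV was lowest. The call was in miR-17 EV, at 0.750 (0.706 to 0.798), against 0.868 (0.818 to 0.921) in miR-93 EV and 0.850 (0.797 to 0.906) in control EV. Scaling by total counts ended the Mertk call, at a log2 ratio of −0.36. Gm14011, which shares 2435 bases with Mertk on the other strand, had at most 32 reads in a library.

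Axl, a relative of Mertk that is also activated by Gas6 (ENSMUSG00000002602, chromosome 7, 25757273 to 25788705), had 1735 normalized counts in miR-93 EV, 1536 in miR-17 EV, 1859 in control EV and 1770 in unexposed. The levels in control EV and unexposed, and those in unexposed and miR-93 EV, were not apart by counting error, and no pair was called. In miR-17 EV the ratio was 0.868 (0.811 to 0.928) to unexposed and 0.827 (0.772 to 0.885) to control EV.

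Timd4, the phosphatidylserine receptor known from resident macrophages of the peritoneum (ENSMUSG00000055546, chromosome 11, 46810800 to 46844332), was scarce, at 69 reads in miR-93 EV, 52 in miR-17 EV, 56 in control EV and 88 in unexposed. In normalized counts these were 62.5, 46.1, 65.6 and 92.7 in the same order, with unexposed highest. Its ratio to unexposed was 0.674 (0.484 to 0.934) in miR-93 EV, 0.498 (0.346 to 0.709) in miR-17 EV and 0.707 (0.497 to 0.9999) in control EV, and all were called lower. The calls in miR-93 EV and control EV ended with a 99% interval, and all 3 with a minimum of 100 normalized counts. The ratio in miR-17 EV was the only one of the 60 ratios of these genes past 2-fold, and that call ended under 5 alternatives, with log2 ratios of −0.995 with TMM factors, −0.96 with total counts, −0.93 with a pseudocount of 5 and −0.80 in the authors' deposited table, and by leaving Timd4 out under the minimum of 100. With so few reads the exposed libraries could not be told apart, and no base of Timd4 reached the coverage that the authors' program counted as adequate.

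Cd68, a glycoprotein of late endosomes and lysosomes used as a macrophage marker (ENSMUSG00000018774, chromosome 11, 69664213 to 69666153), varied least. It had 19707 normalized counts in miR-93 EV, 19600 in miR-17 EV, 19446 in control EV and 21165 in unexposed, and its highest level was 1.09 times its lowest. The exposed libraries were each slightly below unexposed, at ratios of 0.931, 0.926 and 0.919 in that order.

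**Figure D3:**
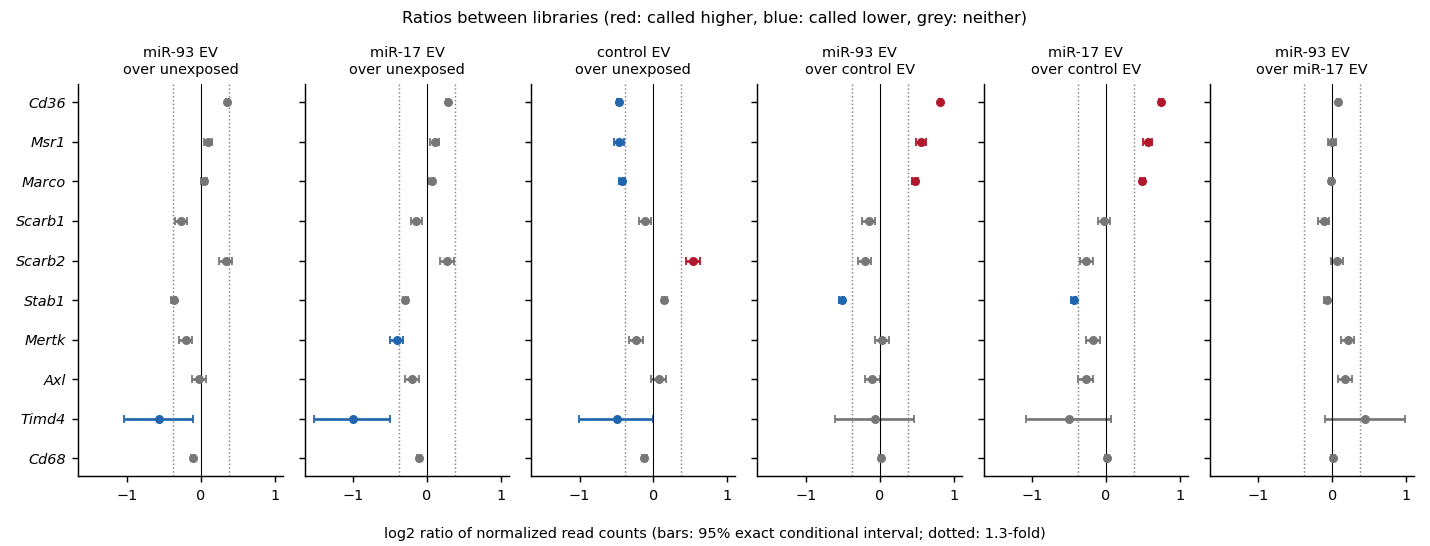
Log2 ratios of normalized counts of the uptake receptor genes for the 6 pairs of libraries, with 95% exact conditional intervals and dotted lines at 1.3-fold. Msr1, Marco and Cd36 were higher in both mimic libraries than in control EV, and no gene was called between miR-93 EV and miR-17 EV.

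The counts of called receptor genes were set beside those of all genes tested. In control EV against unexposed, 1 of the 10 was called higher, where 6.26% of 15294 genes were, and 4 were called lower, Msr1, Marco, Cd36 and Timd4, where 6.90% were. In miR-93 EV against control EV, 3 were higher, where 10.2% of all genes were, and 1 was lower, where 7.10% were. In miR-17 EV against control EV, 3 were higher and 1 lower as well, where 10% and 7.64% of all genes were. These comparisons share the control EV library, so a level set low or high in it enters each of them. Against unexposed, none was called higher in miR-93 EV, where 3.88% of genes were, and 1 was lower, where 3.30% were. In miR-17 EV against unexposed none was higher, where 3.81% were, and 2 were lower, where 2.95% were. Past 2-fold, 1 receptor gene differed in miR-17 EV against unexposed where 0.604% of genes did. In the other 5 pairs 0 did, where the share of all genes was 0.656% in miR-93 EV against unexposed, 1.41% in control EV against unexposed, 1.58% in miR-93 EV against control EV, 1.65% in miR-17 EV against control EV and 0.33% between the mimic libraries. Between miR-93 EV and miR-17 EV no receptor gene was called in either direction, where 1.55% of genes were higher and 1.56% lower.

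Medians over the 10 genes hid these opposite directions. The median log2 ratio to control EV was −0.03 in miR-93 EV and −0.11 in miR-17 EV, beside −0.02 over all tested genes in each. To unexposed it was −0.07 in miR-93 EV, −0.13 in miR-17 EV and −0.18 in control EV, beside medians over all tested genes of −0.01, −0.01 and 0.000282 in the same order.

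GC content moved with some of these ratios. Msr1 and Cd36 had the lowest GC content of the 10 gene spans, at 36.4% and 37.2%, and Stab1 the highest, at 53.9%, with Marco at 47.0%. After a correction on GC content over all tested genes, the log2 ratio to control EV was 0.22 in miR-93 EV and 0.26 in miR-17 EV for Msr1, against 0.56 in both uncorrected, which ended both calls. For Cd36 it was 0.51 in miR-93 EV and 0.47 in miR-17 EV, against 0.82 and 0.74 uncorrected, and for Marco 0.58 and 0.59, against 0.47 and 0.49 uncorrected, so those calls remained. In control EV against unexposed the corrected values were −0.29 for Msr1 and −0.31 for Cd36, which ended these calls, and −0.50 for Marco. Stab1 was at −0.45 in miR-93 EV and at −0.37 in miR-17 EV over control EV after correction, and the second was no longer called. The GC content is that of the whole span with introns, and the median number of aligned bases per read, which was 98.7 in miR-93 EV, 96.4 in miR-17 EV, 114 in control EV and 103 in unexposed, also set control EV apart. Its part in the ratios was not tested.

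**Figure D4:**
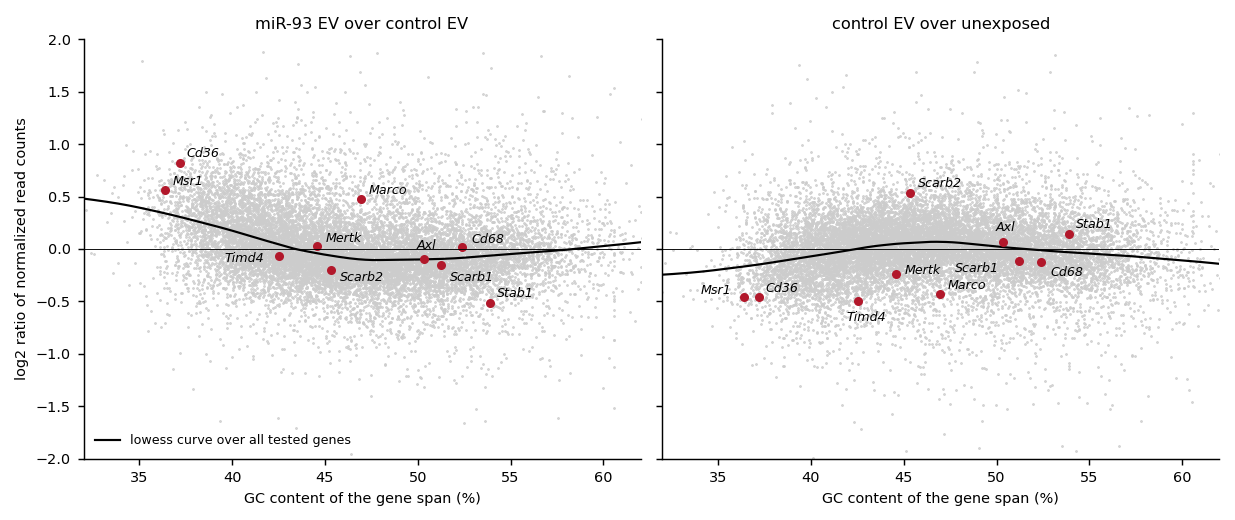
Log2 ratio of normalized counts against GC content of the gene span for all tested genes (grey), with a lowess curve (black) and the uptake receptor genes (red), in miR-93 EV over control EV and in control EV over unexposed. Msr1 and Cd36 lie at 36.4% and 37.2% GC, where the curve departs from 0, and Marco lies away from the curve at 47.0%. Points past a log2 ratio of 2 or outside the plotted GC range are not drawn.

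The authors' deposited table of log2 values gave the same sign as the counts for 9 of 10 receptor genes in miR-93 EV against unexposed, 10 in miR-17 EV against unexposed and 9 in control EV against unexposed. Against control EV it was 10 in miR-93 EV and 9 in miR-17 EV. The authors' deposited table gave Cd36 differences of 0.94 in miR-93 EV and 0.93 in miR-17 EV from control EV, Msr1 differences of 0.59 and 0.65, and Marco differences of 0.55 and 0.51. None of the 10 genes was in any of the authors' deposited lists of genes past 2-fold. Of the 38087 genes of the deposited table, 5721 were in the combined list and 1186 to 1632 in each list of 1 direction. For Timd4 in control EV against unexposed, the authors' deposited table had a difference of 0.02, opposite in sign to the counts. For Stab1 in miR-17 EV against control EV it had −0.30, which is under 1.3-fold.

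Genes around these receptors were taken from 5 lists of 88 genes. Their counts stand beside the shares of all genes called. Against control EV these were 10.2% higher and 7.10% lower in miR-93 EV, and 10% and 7.64% in miR-17 EV. Against unexposed they were 6.26% and 6.90% in control EV, 3.88% and 3.30% in miR-93 EV, and 3.81% and 2.95% in miR-17 EV. Of 18 other scavenger receptors and lipoprotein receptors, 14 were measured in miR-93 EV against control EV, with 2 higher and 3 lower, and 14 in control EV against unexposed, with 2 higher and 0 lower. Among them Cd14, the coreceptor for lipopolysaccharide, had 7626 normalized counts in miR-93 EV, 8027 in miR-17 EV, 11263 in control EV and 7800.5 in unexposed. Fcgr2b, the inhibitory Fc receptor, had 1261, 1283, 2041 and 1498 in the same order. Both were highest in control EV, the library in which Msr1, Marco and Cd36 were lowest. Stab2, a relative of Stab1, had 138 normalized counts in miR-93 EV, 114 in miR-17 EV, 96.0 in control EV and 104 in unexposed.

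Of 22 apoptotic-cell receptors and bridging proteins 18 were measured, with 1 higher and 2 lower in each mimic library against control EV, and 1 higher and 0 lower in control EV against unexposed. Thbs1, which encodes the CD36 ligand thrombospondin-1, had 1657 normalized counts in miR-93 EV, 1625 in miR-17 EV, 1213 in control EV and 1414 in unexposed. C1qa, a chain of the complement protein that coats dying cells, had 2353, 2148, 2949 and 2778 in that order, and Itgb5, an integrin chain, had 1192, 1079, 1329 and 1481. Of 18 genes of engulfment machinery, which drive the actin cup under bound prey, 0 were called in miR-93 EV and 1 was called lower in miR-17 EV against control EV, and 1 was called higher in control EV and 1 in miR-93 EV against unexposed. Each of these calls was of Gulp1, an adaptor of engulfment receptors, named after its values were seen, as is Nr4a1. Abca7, Vav3 and Rac2 had the largest log2 ratios of this list among genes averaging 100 or more normalized counts, and none was past 1.3-fold (−0.37, 0.28 and −0.25 at most).

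Of 10 lysosomal membrane genes, which are partners of Scarb2 and Cd68 in place, 1 was higher and 0 lower in each mimic library against control EV, and 0 were called in any exposed library against unexposed. The 1 was Cd63, a tetraspanin, with 3963 normalized counts in miR-93 EV, 3887 in miR-17 EV, 2909 in control EV and 3441 in unexposed. Npc1 and Laptm5 had log2 ratios of −0.28 and −0.25 at most. Of 20 regulators and sheddases, 19 were measured and 1 was called higher in miR-17 EV against control EV. Nr4a1, an early-response nuclear receptor, was called lower in control EV and in miR-17 EV against unexposed. The gene called higher was Adam10, a protease that sheds surface proteins, with 1991 normalized counts in miR-93 EV, 2114 in miR-17 EV, 1554 in control EV and 1878 in unexposed. Nr1h3, the oxysterol receptor LXR alpha, had 1178, 1155, 928.7 and 1141 in that order, and Rxrb had 652, 614, 778 and 688.

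**Figure D5:**
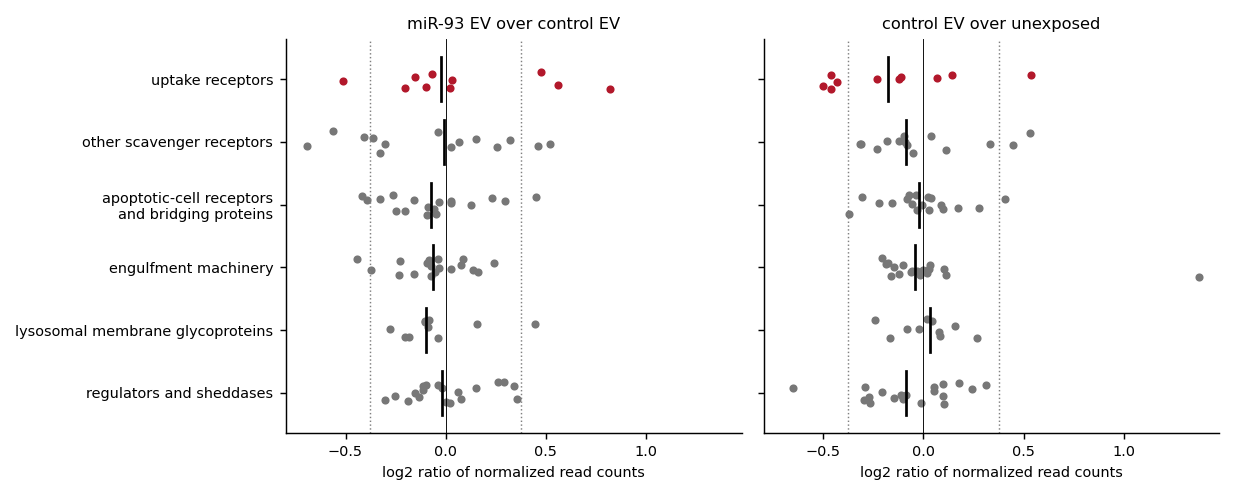
Log2 ratios of the uptake receptor genes (red) and of genes of the 5 related lists (grey) in miR-93 EV over control EV and in control EV over unexposed, with 1 point per measured gene, a black bar at each list's median and dotted lines at 1.3-fold. The receptor medians were −0.03 and −0.18.

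Genes whose levels over the 4 libraries were most like those of Cd36 and Msr1 were sought among 10200 other protein-coding genes averaging 100 or more normalized counts, by the distance between log2 levels centred on each gene's mean. For Cd36 these were Rbms3 at a distance of 0.02, Dnttip2 at 0.05 and Cbx3 at 0.05. For Msr1 they were Fmr1, Uty and Atad1, at 0.03 each. Among the receptor genes, Marco was nearest to Msr1 at 0.07, and Msr1 nearest to Cd36 at 0.23. Among all genes compared, Marco ranked 42nd by nearness to Msr1, and Msr1 242nd by nearness to Cd36. These distances are of levels without the GC correction. After it, Msr1 and Marco were further apart, at log2 ratios of 0.22 and 0.58 in miR-93 EV over control EV. With 4 libraries, a small distance is easily met by many genes.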

How the data were processed

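Per the labels' protocols, pooled RNA came from MiRNeasy Mini Kits and libraries from a kit of the Ion Total RNA-Seq type. The submitters' processing notes name the mm10 build and DESeq. The aligner, the annotation and strand handling are not named in the sources available, so reads of overlapping genes may be shared. Per the file headers, the deposited table gives raw read counts, average coverage (a signal not scaled to depth), low-coverage bases and GC percent for 38087 genes. The authors' log2 values were centred on each gene's median over the 4 libraries. Gene length as deposited equalled end minus start plus 1 for all 38087 genes.

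Counts were divided by median-of-ratios size factors (1.10 for miR-93 EV, 1.13 for miR-17 EV, 0.854 for control EV, 0.949 for unexposed). Ratios have exact conditional (Clopper-Pearson) 95% intervals, computed with scipy 1.17.1, and levels have exact Poisson intervals. Calls needed 1.3-fold (or 2-fold), a mean of 20 normalized counts and an interval that excluded 1, and percentages called are over all genes tested. The rule was run on simulated counts that varied by counting error only, which cannot show how it handles the spread between cultures. Exon lengths and 3' UTRs came from GENCODE M21 by gene identifier, matched for all 10 receptor genes. Alternatives were edgeR 4.0.16 TMM factors, total counts, upper quartile, other minimums, a 99% interval, a pseudocount of 5, coverage, a lowess correction on GC content (statsmodels 0.14.6) and the authors' log2 values.

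All 10 receptor genes were named. From each related list up to 3 genes were named, those averaging 100 or more normalized counts and with the largest log2 ratio in any pair, and from all genes the 3 nearest to each of the 2 receptor genes with the widest log2 range among those averaging 100 or more. The receptor genes and lists were chosen with earlier results of these data known. Groups came from the transfection label.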

Additional observations from a re-analysis of the deposited data

How the results depend on the processing

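No paired analysis was possible because each group was 1 library with no replicate number in the labels. Of 630 ratios recomputed under alternatives, 544 stayed within the counting interval of the reported ratio, 85 moved outside it and 1 called ratio reversed, that of Timd4 in control EV against unexposed, at a log2 value of 0.0191 in the authors' log2 values. Of 189 counts of called receptor genes, 170 were within 1.5 times the reported count. In control EV against unexposed, 2 genes rather than 4 were lower after GC correction (Marco and Timd4) and 2 in the authors' values (Cd36 and Msr1). The shares of all genes lower were 6.04% and 14.0% under these alternatives, beside 6.90% as reported. In miR-17 EV against unexposed, 1 rather than 2 was lower with total counts, which ended the Mertk call. With a minimum of 100 normalized counts 1 was lower too. All genes gave 1.99% and 2.4% lower, beside 2.95% as reported. In that pair 0 rather than 1 passed 2-fold with TMM factors, total counts, a minimum of 100, a pseudocount of 5 or the authors' values. Past 2-fold were 0.604%, 0.61%, 0.0422%, 0.24% and 4.01% of all genes in that order, beside 0.604% as reported. In miR-93 EV against unexposed, 2 rather than 0 were higher with total counts and 2 in the authors' values (Cd36 and Scarb2 in each), and 2 rather than 1 were lower with the upper quartile, 0 with a minimum of 100 and 0 with a 99% interval. In miR-17 EV against control EV, 2 rather than 1 were lower by coverage and 0 after GC correction, where 11.8% and 6.82% of all genes were, beside 7.64% as reported. In miR-93 EV against control EV, 2 rather than 1 were lower in the authors' values, where 13.2% of all genes were, beside 7.10% as reported. Between miR-93 EV and miR-17 EV, 1 rather than 0 was higher by coverage and 1 in the authors' values, Timd4 in both. There 5.07% and 7.44% of all genes were higher, beside 1.55% as reported. The changes with a minimum of 100 follow from leaving out Timd4, and the cause of the others was not tested. Coverage and the authors' values carry no counting interval, so the fold alone set those calls. Size factors computed without control EV, an alternative chosen after seeing the data, were run for the 3 pairs without that library and changed no call in them. Depth limits Timd4, whose intervals span more than 1.5-fold. The calls of single genes of the related lists and of the marker lists were not checked under the alternatives, GC correction included.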

Other observations

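Some genes of the related lists were called but fall outside the naming rule above, and they are named here after their values were seen. Gas6, the bridging ligand of Mertk and Axl, had 6860 normalized counts in miR-93 EV, 6713 in miR-17 EV, 9163 in control EV and 7554 in unexposed, with log2 ratios to control EV of −0.42 and −0.45 in the mimic libraries. Mfge8, which bridges phosphatidylserine to integrins, had 3473 normalized counts in miR-93 EV, 3118 in miR-17 EV, 3177 in control EV and 4105 in unexposed, and the call was in miR-17 EV against unexposed at a log2 ratio of −0.40. Lrp1, a large receptor for lipoproteins and protease complexes, had 29112, 31639, 36520 and 38651 normalized counts in the same order, a log2 ratio of −0.41 in miR-93 EV over unexposed. Gulp1, the adaptor named above, was scarce, with 36.2 normalized counts in miR-93 EV, 28.4 in miR-17 EV, 49.2 in control EV and 19.0 in unexposed, and it was past 2-fold in control EV against unexposed, called higher in miR-93 EV against unexposed at a ratio of 1.91 (1.07 to 3.54) and called lower in miR-17 EV against control EV at 0.577 (0.353 to 0.937).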
